A study of Mus musculus with 12 samples.

Results

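The MHC class I genes described here are 10 named genes of the mouse. H2-K1 and H2-D1 are classical, and H2-Q1, H2-Q2, H2-Q7, H2-Q8, H2-Q10, H2-T23 and H2-Bl are counted as non-classical. B2m encodes the light chain of class I proteins. The genes were chosen by their log2 signals on these same arrays over the 4 groups, and which contrast weighed in that choice is not recorded. Their probes were taken as every non-control probe whose gene name, or a known synonym, is one of the 10, which gave 22 of the 41174 probes on the array. Gene expression was measured on 1-colour Agilent mouse arrays in knockout hearts, wild type hearts, knockout kidneys and wild type kidneys, with 3 arrays a group named a, b and c. Knockout mice lack mENT1, an equilibrative nucleoside transporter made by Slc29a1. All 4 groups carry the FVB/N genetic background by the labels. The age of the animals, the way the allele was made and the cells in which it acts are not given in the sources used here.

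Class I heavy chains pair with B2m in the endoplasmic reticulum, take up a peptide carried there by the Tap1 and Tap2 transporter, and bring it to the cell surface. Classical molecules show peptides to CD8 T cells on nearly every nucleated cell. Non-classical ones are less variable between mice and have narrower tasks, such as the ligand of natural killer cell receptors that H2-T23 (Qa-1) provides, the Qa-2 antigen made by H2-Q7, or the secreted protein of H2-Q10, which is known as a product of the liver. Interferons and the transcription factors NF-kB and Nlrc5 are known to raise class I transcription.

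The heavy chain genes resemble each other, and the probes, 60 bases long, differ in how much sequence they share. Of the 22 member probes, 12 share a run of 15 or more bases on the same strand with a probe of another name. The 3 pairs in which both probes are members are shown because signal from 1 gene could reach the probe of the other. Capitals mark the shared run, and positions are on mouse build mm7 as the scanner files list them.
H2-Q10 A_52_P428354, chr17:33571803-33571862: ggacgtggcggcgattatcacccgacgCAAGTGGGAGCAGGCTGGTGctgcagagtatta
H2-K1 A_52_P50496, chr17:32077678-32077737: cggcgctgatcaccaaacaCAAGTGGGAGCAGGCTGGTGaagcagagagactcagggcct
H2-Bl A_52_P350519, placed on Un_random from 9969247 to 9969306: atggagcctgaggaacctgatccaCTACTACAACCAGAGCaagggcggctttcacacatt
H2-K1 A_52_P474242, spread over chr17:32077868-32078115: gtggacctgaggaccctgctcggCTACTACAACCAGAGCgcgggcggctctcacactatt
H2-Q7 A_51_P262079, spread over chr17:33494682-33494913: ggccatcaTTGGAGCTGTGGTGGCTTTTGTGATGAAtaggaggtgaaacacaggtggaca
H2-T23 A_51_P237754, spread over chr17:34134435-34134671: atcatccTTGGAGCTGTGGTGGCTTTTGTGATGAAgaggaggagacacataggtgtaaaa

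The runs are 20 bases for the H2-Q10 and H2-K1 pair, 16 for H2-Bl and H2-K1 and 28 for H2-Q7 and H2-T23. The remaining 10 probes share no run of 15 bases with a probe of another name, among them the H2-D1 probe A_51_P496996, the H2-Q8 probe and the 2 H2-Q10 probes nearest the 3' end. Of these 10 probes 5 were wholly higher in both knockout tissues, and the first 30 bases of 4 of them are shown, since the results turn on them.
H2-Q10 A_51_P230269, chr17:33575263-33575322: tcacttccacactgagaataagaatctgga
H2-Q10 A_51_P230267, chr17:33574366-33574425: tgctgatctgctgtggccatcattaaagct
H2-Q8 A_52_P152133, chr17:33492583-33492642: ggagacatggacatctacactaggctggtt
H2-Bl A_51_P247114, placed on Un_random from 9967736 to 9967795: gctcaaatctttgagctgagggttgattag

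Runs were sought between probes of the array only. A match of any probe to the RNA of another class I gene was not looked for, so a probe without a shared run need not be specific. Whether the transcripts of these animals match the probes base for base was not tested. Probes whose positions span more than 60 bases cross an intron of the genome build. H2-Bl is listed by RefSeq as a transcribed pseudogene.

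Values are log2 signals relative to the 75th percentile of each array, and a level compares arrays for 1 probe, never 1 probe with another. That percentile stood at an intensity of 451 on the dimmest array and 878 on the brightest, and each array had 157 to 331 saturated spots. Knockout kidney a stands apart in that 231 of its spots were left out by the scanner's quality marks, against 54 to 91 on the other 11 arrays. Knockout hearts a and b and knockout kidney a show Xist signal, and the other 9 arrays do not. Of Xist and the Y-linked Ddx3y, Eif2s3y, Kdm5d and Uty, 1 was above background on those 3 arrays and 4 on each of the other 9. By these genes the 3 arrays are of females and the other 9 of males. Females are thus found only among knockouts, and the effects of sex and genotype cannot be fully told apart. Slc29a1 itself was at 1.38, 0.59 and 1.53 in knockout hearts, against 3.15, 3.23 and 3.36 in wild type hearts (difference -2.08 ± 0.26, SE, adjusted p of 0.0377 by limma, or 0.0658 where the replicate letter is a block). In kidney it was at -1.43, -1.30 and -1.43 in knockouts, against 1.51, 1.27 and 1.62 in wild types (-2.85 ± 0.17, adjusted p of 0.00717 by limma). The directions below rest on the labels of the scanner files, which were kept because Slc29a1 is lower there in knockouts, so this is no independent check. With the labels of the deposited table every direction between genotypes would be turned round. All 3 knockout hearts share a slide and all 3 wild type hearts share another, so for heart the effect of the slide and that of the genotype cannot be told apart. In kidney, 2 arrays of each genotype share a slide. In whole tissue, fewer cells of a type and less RNA per cell cannot be told apart.

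The genotype differences of the members are given as a description, with no test, because these values were known when the genes were chosen. In knockout hearts 7 of the 22 probes lay above all wild type hearts and 6 lay below all of them, and in the remaining 9 the groups overlapped. Over all 26175 probes tested in heart, 8.76% lay wholly higher and 14.0% wholly lower in knockouts. In knockout kidneys 6 probes lay wholly higher, 12 wholly lower and 4 overlapped, against 10.2% wholly higher and 11.1% wholly lower over the 25804 probes tested there. All 22 passed the filter on dim probes in both tissues, which asks for signal in only 1 of the 2 groups. H2-Q10 A_51_P230267 passed in heart only through the knockouts, with 1 of 3 wild type hearts well above background. H2-D1 A_52_P246277 passed in both tissues only through the wild types, with 2 of 3 knockout hearts and 1 of 3 knockout kidneys well above background. The separation of the first in heart and the second in kidney follows in part from the filter. The median difference of the 22 member probes was 0.23 in heart, beside -0.08 over all probes tested. In kidney it was -0.61, beside -0.03 over all probes tested.

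By gene name, the wholly lower probes came from both classical and non-classical genes, and those wholly higher in both tissues were all non-classical. Of the 5 probes of classical genes 1 was wholly higher and 1 wholly lower in knockout hearts. In knockout kidneys 0 were wholly higher and 3 wholly lower. Among those 3 is H2-D1 A_52_P246277, which the files describe as an mRNA of a thymus-leukemia antigen, a non-classical molecule. Of the 14 non-classical probes 6 were wholly higher and 5 wholly lower in knockout hearts, and 6 were wholly higher and 8 wholly lower in knockout kidneys. The 6 wholly higher non-classical probes were the same in both tissues: the H2-Q8 probe, the 2 downstream H2-Q10 probes and the 3 H2-Bl probes. H2-Bl, the transcribed pseudogene, is counted there by its name. B2m had 3 overlapping probes in heart, and 1 wholly lower and 2 overlapping in kidney. The median differences in heart and kidney were 0.33 and -0.86 for the classical (A_52_P246277 included), 0.83 and -0.44 for the non-classical and 0.09 and -0.63 for the B2m probes. No test was made between the classes, since probes of a family are not replicates.

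**Figure D1:**
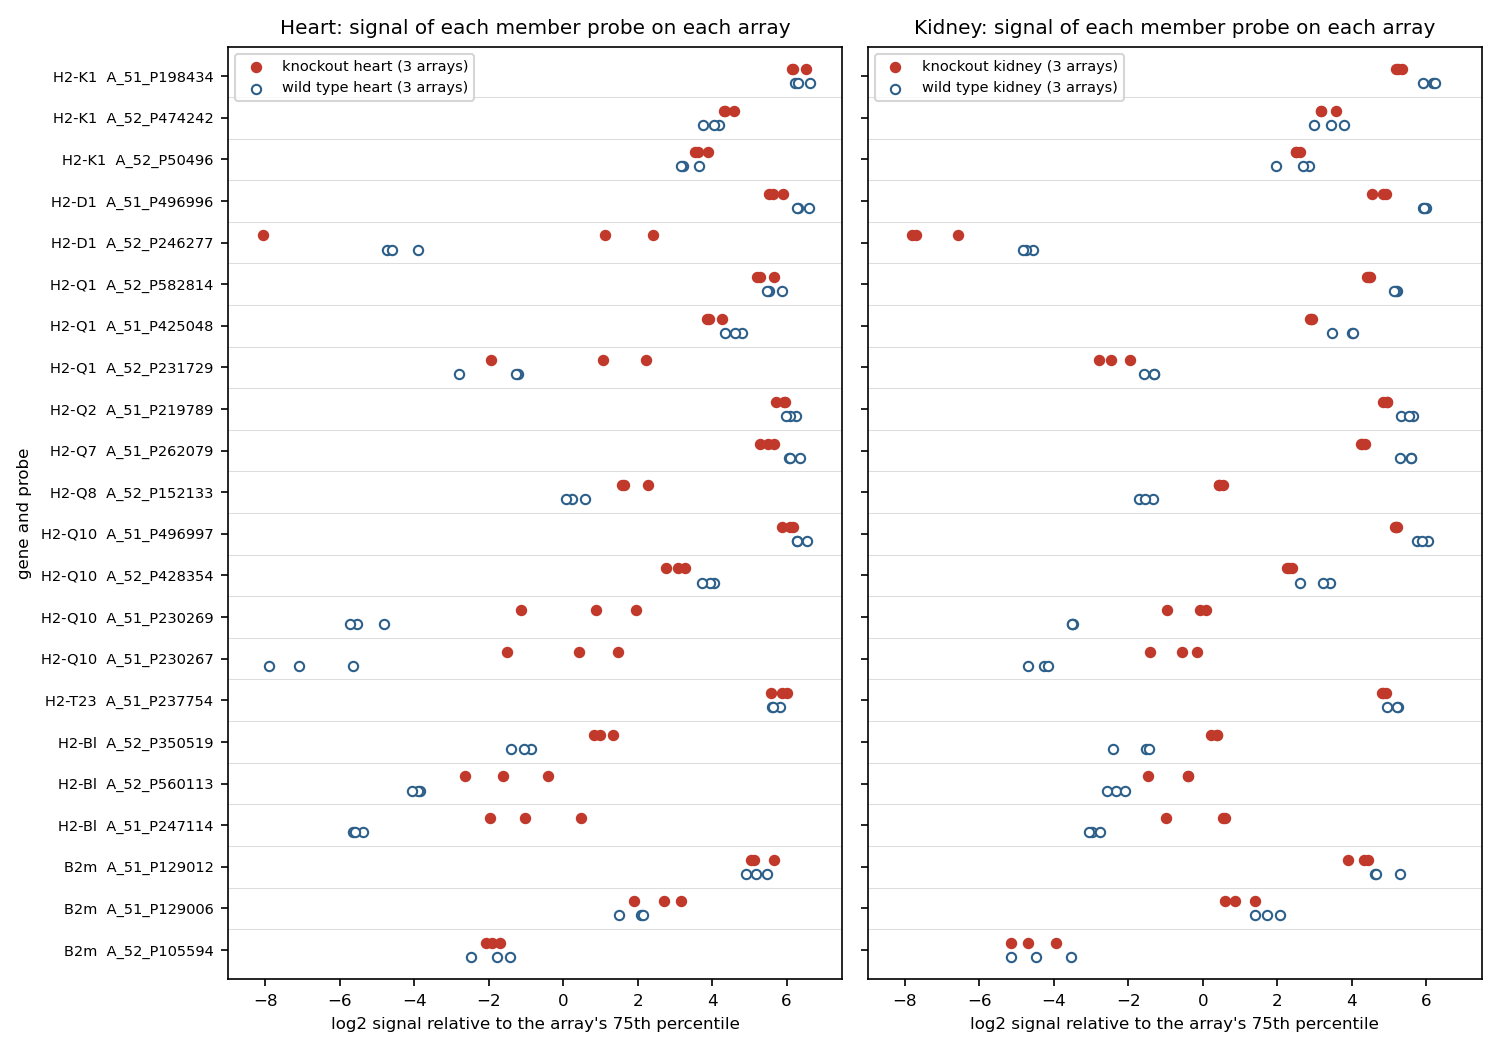
Log2 signal of the 22 member probes relative to the 75th percentile of each array, in heart on the left and kidney on the right; filled points are the 3 knockout arrays and open points, just below them, the 3 wild type arrays. The H2-Q8 probe, the H2-Bl probes and 2 of the H2-Q10 probes lie to the right of wild type in both tissues, while H2-D1 A_51_P496996 and H2-Q7 lie to its left.

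H2-D1 encodes 1 of the classical heavy chains that show peptides to T cells. Its probe A_51_P496996, spread over chr17:33361850-33362082, was at 5.54, 5.63 and 5.90 in knockout hearts, against 6.62, 6.31 and 6.28 in wild type hearts. Its kidney values were 4.55, 4.84 and 4.92 in knockouts, against 5.99, 5.91 and 5.93 in wild types. The groups did not overlap in either tissue, and the signal was 1.64-fold lower in knockout hearts (-0.71 ± 0.17, SE, n = 3 each) and 2.25-fold lower in knockout kidneys (-1.17 ± 0.17). Over the 4 groups the order from the top was wild type heart, wild type kidney, knockout heart and knockout kidney, with no overlap between neighbours, although the highest knockout heart (5.90) and the lowest wild type kidney (5.91) nearly touch.

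The second probe that the files name H2-D1, A_52_P246277 at chr17:34358688-34358747, is described there as an mRNA of a thymus-leukemia (TL) antigen, a non-classical molecule known from thymocytes. It was at 1.11 and 2.42 in knockout hearts a and b and at -8.06 in knockout heart c, against -3.89, -4.72 and -4.60 in wild type hearts. In knockout kidneys it was at -7.80, -7.69 and -6.58, against -4.57, -4.76 and -4.82 in wild type kidneys. The hearts overlapped, because knockout heart c was not well above background while a and b were far above wild type. Of the knockout kidneys 1 of 3 was well above background, so the difference of -2.64 ± 0.34 (SE, n = 3 each) rests in part on values at the scanner's floor. Markers of T cells and thymocytes move with the 2 high hearts: the 10 genes of that list had a summed signal of 147 and 302 times the 75th percentile on knockout hearts a and b and 10.9 on c, against 7.49 to 11.3 on wild type hearts. The median level of that list was 3.50 and 4.72 on knockout hearts a and b and -3.06 on c, against -4.44 to -3.69 on wild type hearts. By the median, c thus lay above the wild types, though its sum lay among theirs. In heart 8 of 8 tested genes of that list were higher in knockouts, with 0 called. All 8 had an unadjusted p under 0.05 by limma, where 6.78% of all genes were higher at that threshold. In kidney the sums were 0.808 to 1.02 on knockouts and 1.34 to 1.46 on wild types. Without knockout heart c the heart difference of this probe was 6.17, and with c as the only knockout heart it was -3.66. With normexp background correction its kidney difference was 0.39, beside a median of 0.23 over all kidney probes. Knockout hearts a and b are also the 2 hearts with Xist signal. The part of such cells, or of sex, in the result was not tested.

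H2-K1, the other classical heavy chain, had 3 probes that did not move alike. A_51_P198434, at chr17:32074445-32074504 toward the 3' end, was at 6.15, 6.18 and 6.53 in knockout hearts, against 6.62, 6.22 and 6.31 in wild type hearts. On kidney arrays the values were 5.34, 5.18 and 5.23 in knockouts, against 6.19, 6.25 and 5.91 in wild types. The hearts overlapped, and the kidneys did not (-0.86 ± 0.17, SE, 1.82-fold lower in knockouts). This probe was saturated on knockout hearts a and c, so a heart difference could be hidden there.

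The upstream H2-K1 probe A_52_P474242 was at 4.35, 4.58 and 4.32 in knockout hearts, against 4.17, 4.04 and 3.77 in wild type hearts (0.42 ± 0.16, SE, wholly higher). In kidney its values of 3.57, 3.17 and 3.19 in knockouts lay within those of wild types, at 3.80, 3.00 and 3.44. A_52_P50496 overlapped in both tissues, with differences of 0.33 ± 0.18 in heart and 0.03 ± 0.25 in kidney. These are the H2-K1 probes printed above that share runs with H2-Bl and H2-Q10, and the 3 probes of the gene do not agree on a direction in either tissue.

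H2-Q7 encodes the Qa-2 antigen. Its probe was at 5.28, 5.50 and 5.67 in knockout hearts, against 6.35, 6.07 and 6.08 in wild type hearts. In kidney it was at 4.25, 4.27 and 4.36 in knockouts, against 5.60, 5.29 and 5.59 in wild types. The signal was 1.61-fold lower in knockout hearts (-0.68 ± 0.16, SE, n = 3 each) and 2.30-fold lower in knockout kidneys (-1.20 ± 0.16), values close to those of H2-D1. H2-Q2, a non-classical gene of the Q region, was wholly lower in both knockout tissues too, by smaller amounts: -0.23 ± 0.14 in heart and -0.59 ± 0.16 in kidney.

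H2-T23 encodes Qa-1, which natural killer cells read through their inhibitory receptors. It was at 5.57, 6.01 and 5.89 in knockout hearts, against 5.82, 5.62 and 5.65 in wild type hearts, and the groups overlapped. Its kidney values were 4.93, 4.80 and 4.85 in knockouts, against 5.25, 4.96 and 5.22 in wild types (-0.29 ± 0.16, SE, wholly lower). The probes of H2-T23 and H2-Q7 share 28 bases, and yet H2-Q7 was wholly lower in knockout hearts where H2-T23 overlapped.

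H2-Q1 had 3 probes, of which A_51_P425048 carries the RefSeq transcript of the gene. This one was at 3.87, 4.27 and 3.92 in knockout hearts, against 4.80, 4.61 and 4.35 in wild type hearts. Knockout kidneys had 2.89, 2.91 and 2.92, against 4.01, 3.46 and 4.04 in wild type kidneys. The groups did not overlap in either tissue (-0.57 ± 0.18 in heart and -0.93 ± 0.20 in kidney, SE). A_52_P582814, which the files name H2-Q1 but describe as a cDNA of Q region locus 4, overlapped in heart (-0.24 ± 0.19) and was wholly lower in knockout kidneys (-0.73 ± 0.14).

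The third H2-Q1 probe, A_52_P231729 for a transcript described as Q1b, behaved like the TL probe in heart. It was at 1.08, 2.23 and -1.94 in knockout hearts, against -1.21, -1.27 and -2.80 in wild type hearts, and at -1.95, -2.47 and -2.79 in knockout kidneys, against -1.59, -1.30 and -1.30 in wild type kidneys. Knockout hearts a and b were high and c lay among the wild types, so the hearts overlapped, while the kidneys did not (-1.0 ± 0.25, SE). Without knockout heart c the heart difference was 3.41, and with c as the only knockout heart it was -0.18. The T cell and thymocyte genes and Xist were high on the same 2 hearts, as given above, and their part was not tested.

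H2-Q8 belongs to the same Qa-2 group of genes as H2-Q7 but went the other way. Its probe was at 1.65, 1.57 and 2.29 in knockout hearts, against 0.60, 0.23 and 0.08 in wild type hearts. On kidney arrays the values were 0.44, 0.56 and 0.43 in knockouts, against -1.72, -1.34 and -1.55 in wild types. The groups were separate in both tissues, with a signal 2.90-fold higher in knockout hearts (1.53 ± 0.24, SE, n = 3 each) and 4.04-fold higher in knockout kidneys (2.02 ± 0.17). Within the slide that held 2 kidneys of each genotype the difference was 2.03. The order of the groups from the top was knockout heart, with wild type heart and knockout kidney overlapping below it, and wild type kidney lowest.

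**Figure D2:**
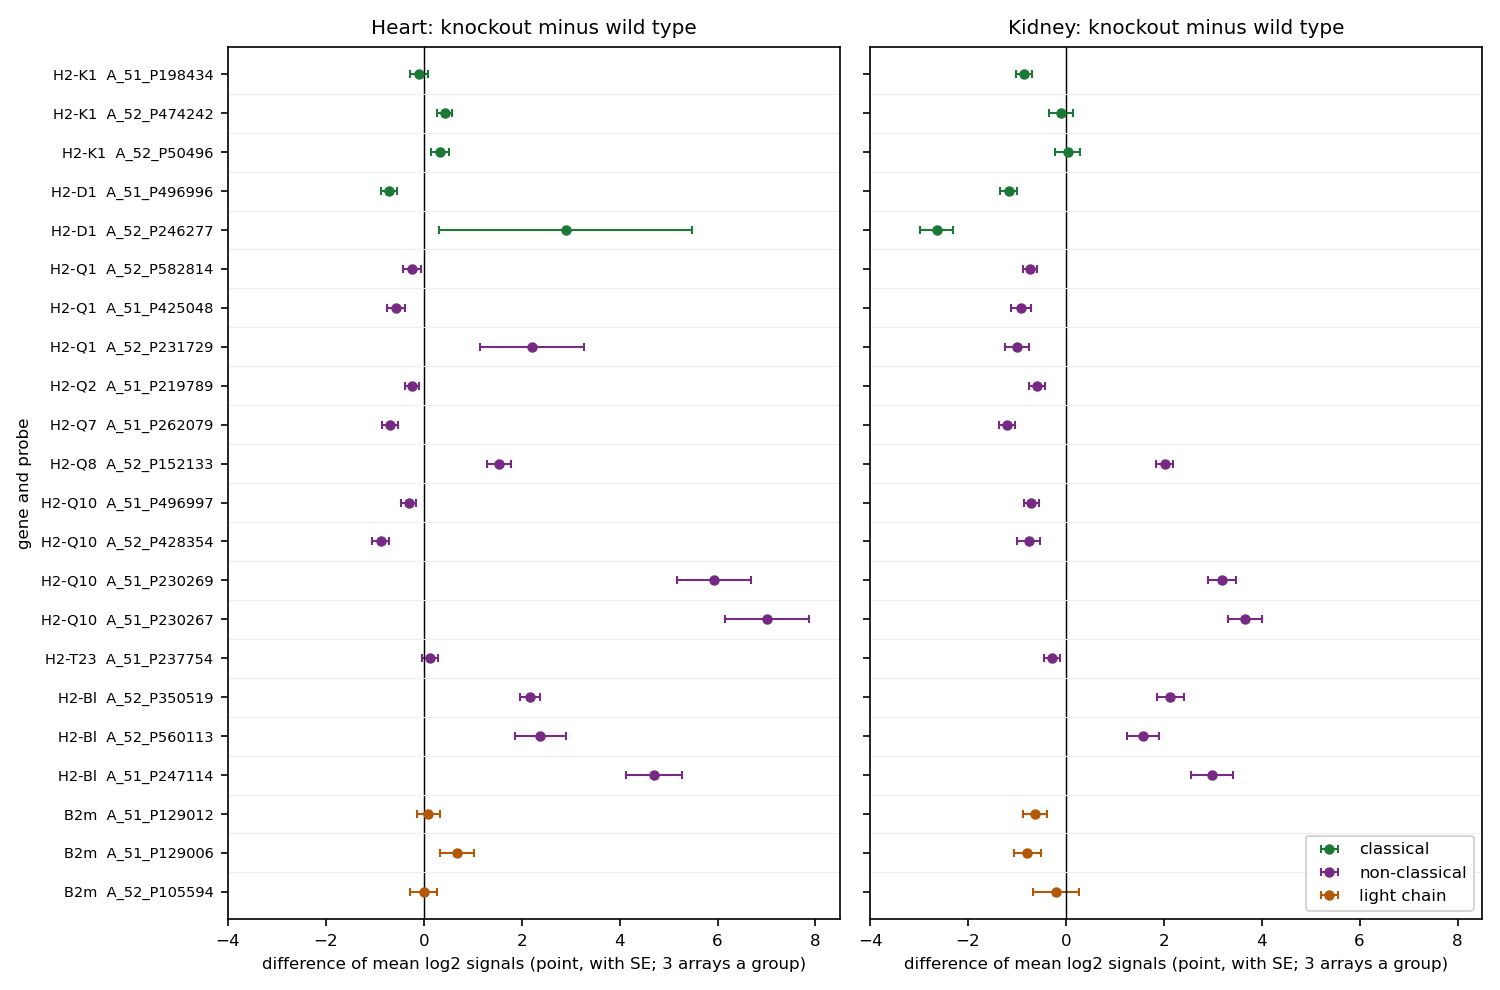
Difference of the mean log2 signals, knockout minus wild type, of each member probe with its SE, in heart on the left and kidney on the right (3 arrays a group); colours give classical, non-classical and light chain genes. Points right of 0 are higher in knockouts, as the H2-Q8, H2-Bl and 2 H2-Q10 probes are in both tissues, and the kidney points of the other probes lie mostly between 0 and -1.20.

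H2-Q10 encodes a soluble class I protein that the liver secretes into the blood. The 4 probes named for it divide along the gene. The 2 upstream ones were lower in knockouts: A_52_P428354 was at 3.07, 2.76 and 3.28 in knockout hearts, against 4.06, 3.95 and 3.74 in wild type hearts (-0.88 ± 0.18, SE), and A_51_P496997, at chr17:33574106-33574165, differed by -0.31 ± 0.15. In kidney these probes differed by -0.76 ± 0.24 and -0.71 ± 0.16, and all 4 of these contrasts were without overlap.

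The 2 downstream probes went the other way by far larger amounts. A_51_P230269 was at 1.96, -1.13 and 0.89 in knockout hearts, against -4.80, -5.53 and -5.74 in wild type hearts. In kidney it was at 0.09, -0.08 and -0.95 in knockouts, against -3.47, -3.52 and -3.52 in wild types. The signal was 60.8-fold higher in knockout hearts (5.93 ± 0.75, SE, n = 3 each) and 9.14-fold higher in knockout kidneys (3.19 ± 0.29), and the lowest knockout array stood above the highest wild type array in both tissues. A_51_P230267 was at 1.48, -1.51 and 0.41 in knockout hearts, against -5.64, -7.90 and -7.11 in wild type hearts, of which 1 of 3 was well above background. Its kidney values were -0.15, -0.55 and -1.42 in knockouts, against -4.26, -4.70 and -4.15 in wild types, a difference of 3.66 ± 0.35.

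Of the 4 H2-Q10 probes the upstream pair shares sequence with probes of H2-K1 and H2-Q5, by runs of 20 and 35 bases. The downstream pair shares no run of 15 bases with any other probe. The H2-Q5 probe, which shares its run with A_51_P496997, differed by similar amounts to that probe. It stood at -0.30 ± 0.16 (SE) in heart, with overlap, and at -0.68 ± 0.16 in kidney, wholly lower in knockouts. Which gene's RNA the upstream pair measures was not tested. With normexp background correction, which raises dim signals, the heart differences of the downstream pair were 3.87 and 3.43, so their size depends on how the floor of wild type hearts is treated and their direction did not. Markers of liver can be set beside these values. Of 5 liver genes above background on all 6 hearts, 4 were higher in knockouts and 3 were called, where limma called 0.592% of all genes. A further 4 were tested only through the knockout hearts, so their 4 calls follow in part from the filter. The list's median level was -2.10 to -1.34 on knockout hearts, against -6.27 to -4.59 on wild type hearts. In kidney 6 genes were above background on all 6 arrays, of which 5 were higher in knockouts and 0 were called. The median level there was -3.32 to -1.15 on knockouts, against -4.88 to -4.26 on wild types. The summed signal of the list was 9.96 to 16.6 times the 75th percentile on knockout hearts and 9.89 to 11.8 on wild type hearts, and 5.48 to 9.87 on knockout kidneys and 5.04 to 8.09 on wild type kidneys. In heart Ahsg made up most of these sums, at a mean of 3.29 on knockouts and 3.39 on wild types. It was the 1 gene of the 9 tested in heart that was not higher in knockouts, so the sums say little of the other genes. Of its 10 genes, 9 were above background on each knockout heart and 5 to 8 on wild type hearts, and 8 to 10 were on knockout kidneys and 6 to 8 on wild type kidneys. The part of liver RNA in the H2-Q10 result was not tested.

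H2-Bl has the blastocyst in its full gene name. All 3 of its probes were wholly higher in both knockout tissues. A_52_P350519 was at 1.0, 0.83 and 1.34 in knockout hearts, against -0.87, -1.06 and -1.40 in wild type hearts, and at 0.21, 0.39 and 0.39 in knockout kidneys, against -1.53, -2.40 and -1.46 in wild type kidneys. The difference was alike in both tissues, 2.16 ± 0.20 and 2.13 ± 0.28 (SE, n = 3 each).

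The 2 downstream H2-Bl probes overlap each other by 30 bases and count as nearly 1 measurement. A_51_P247114 was at -1.02, 0.49 and -1.97 in knockout hearts, against -5.64, -5.38 and -5.59 in wild type hearts, and at -0.98, 0.54 and 0.60 in knockout kidneys, against -2.99, -2.76 and -3.06 in wild type kidneys. The difference was 4.71 ± 0.58 in heart and 2.98 ± 0.43 in kidney. A_52_P560113 gave 2.38 ± 0.52 and 1.58 ± 0.33, with knockout heart b the highest of the hearts on both probes.

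**Figure D3:**
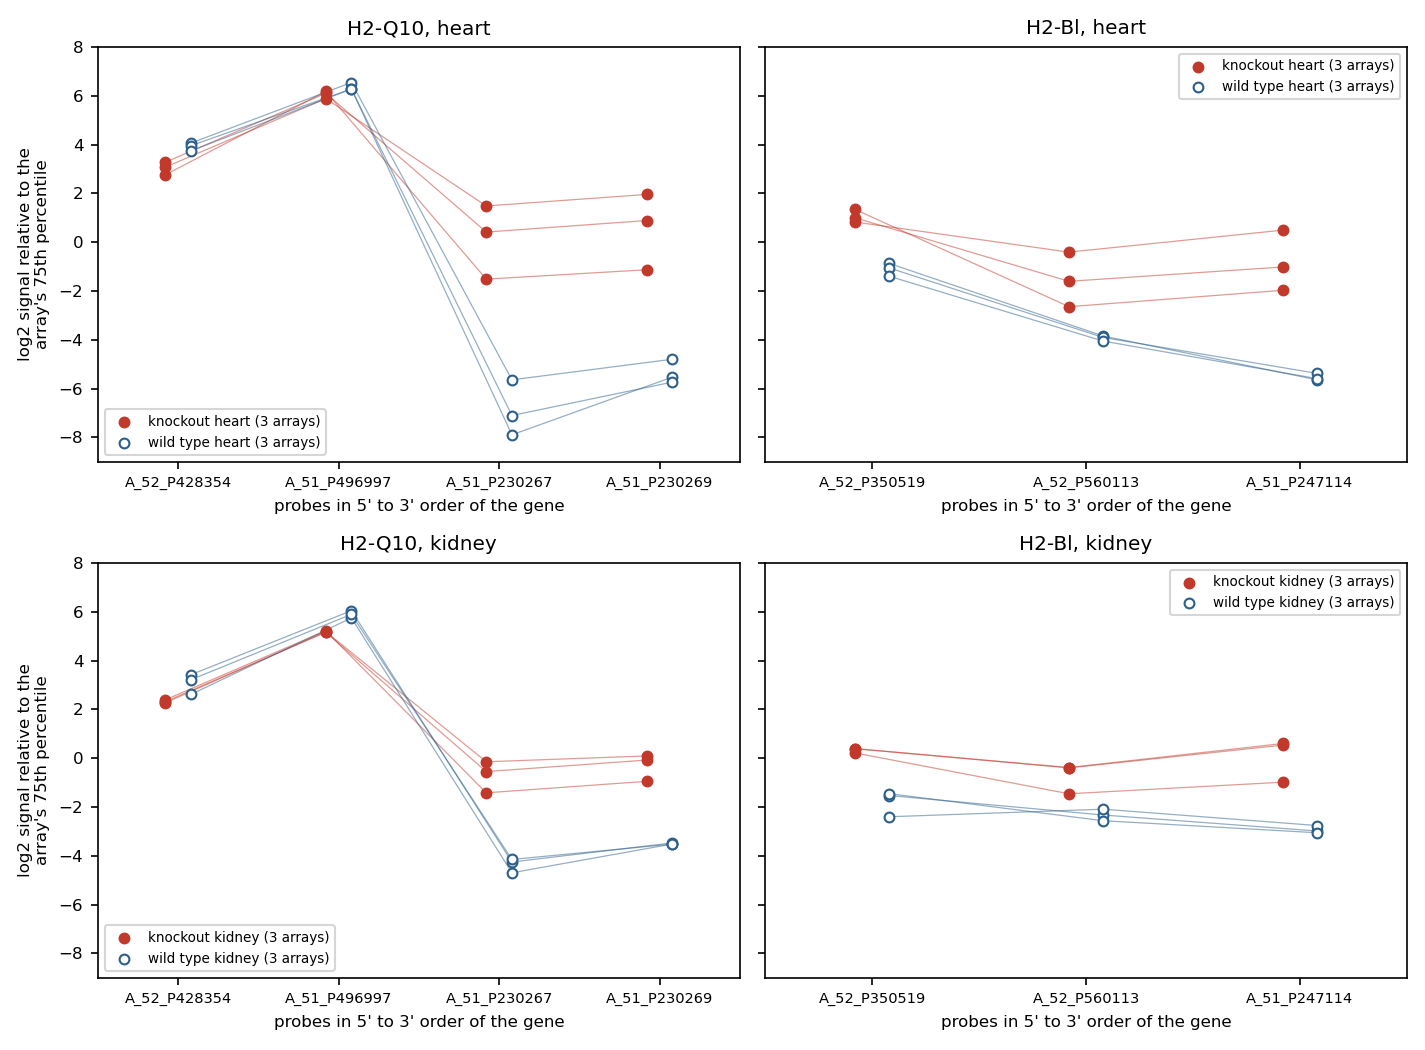
Log2 signal of the H2-Q10 and H2-Bl probes in 5' to 3' order of the gene, in heart (top) and kidney (bottom); each line joins the probes of 1 array, filled for knockout and open for wild type. The 2 upstream H2-Q10 probes are lower in knockouts and the 2 downstream ones higher, while all 3 H2-Bl probes are higher; levels of different probes are not comparable.

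B2m, on chromosome 2, is the light chain without which class I heavy chains are not stably shown at the cell surface. A_51_P129012, at chr2:121893518-121893577, was at 5.13, 5.06 and 5.67 in knockout hearts, against 5.48, 5.19 and 4.92 in wild type hearts. On kidney arrays the values were 4.43, 4.34 and 3.91 in knockouts, against 4.62, 5.29 and 4.66 in wild types. The hearts overlapped (0.09 ± 0.23, SE) and the kidneys did not (-0.63 ± 0.25, 1.55-fold lower in knockouts). A_51_P129006 overlapped in both tissues, with differences of 0.68 ± 0.35 in heart and -0.79 ± 0.28 in kidney. The third probe, which lies upstream and is described as an unclassifiable cDNA, overlapped in both tissues.

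Leukocyte and macrophage markers can be set beside the lower kidney values. Of 9 macrophage genes 8 were lower in knockout kidneys (median -0.60, 0 called), with a summed signal of 19.1 to 29.8 times the 75th percentile on knockouts and 31.2 to 43.3 on wild types. Of 8 leukocyte genes 7 were lower (median -0.79, 0 called), with sums of 4.06 to 5.70 on knockouts and 6.98 to 8.63 on wild types. In heart all 9 macrophage genes were lower (median -0.33, sums of 101 to 136 on knockouts and 139 to 153 on wild types) and all 8 leukocyte genes higher (median 0.75, sums of 22.9 to 107 and 18.0 to 25.1). All of these genes were above background on every array. Of 16 interferon response genes 13 were higher in knockout hearts (median 0.46, sums of 37.2 to 53.0 on knockouts and 31.8 to 39.6 on wild types) and 12 were lower in knockout kidneys (median -0.19, sums of 16.4 to 19.96 and 18.5 to 22.8), with 0 called in either. At an unadjusted p under 0.05 by limma, 9 interferon response genes were higher in heart and 4 lower in kidney. Of the macrophage genes 1 was lower in heart and 5 in kidney, and of the leukocyte genes 2 were higher in heart and 6 lower in kidney. None passed in the opposite direction. Over all genes 6.78% were higher and 8.43% lower in heart, and 5.5% higher and 6.61% lower in kidney. The part of these lists in the class I values was not tested.

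Between wild type tissues the members are described without p-values, since the values of all 4 groups were known in the choice of the genes and the wild type arrays also enter the genotype differences. Limma called 15 of the 22 probes between wild type hearts and wild type kidneys, 11 higher and 4 lower in heart. Over all 26943 probes tested 61.6% were called, 32.8% higher and 28.7% lower, and nothing is read from the members' count. No slide held both wild type tissues, so slide and tissue cannot be told apart within a slide, and with the slide as a random block 15 were called.

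Apart from 1 B2m probe, H2-Q8 had the largest difference toward wild type heart, at 0.60, 0.23 and 0.08 in heart, against -1.72, -1.34 and -1.55 in kidney (1.84 ± 0.19, SE). H2-D1 A_51_P496996 was 1.37-fold higher in wild type heart, H2-Q7 1.60-fold and H2-T23 1.46-fold. The B2m probe was the unclassifiable upstream cDNA, at 2.50 ± 0.45.

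The 4 probes wholly lower in wild type heart were the downstream pairs of H2-Q10 and H2-Bl, which were also wholly higher in knockouts. H2-Q10 A_51_P230269 stood 3.61-fold lower in wild type heart than in wild type kidney (-1.85 ± 0.25, SE). The upstream H2-Q10 probes differed the other way (0.47 ± 0.15 and 0.84 ± 0.23). H2-Bl A_51_P247114 was 6.08-fold lower in wild type heart (-2.60 ± 0.15). With normexp the differences of A_51_P230269 and A_51_P247114 were -0.67 and -1.02. Without wild type heart a the count of called members was 8, and without wild type heart b it was 9.

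**Figure D4:**
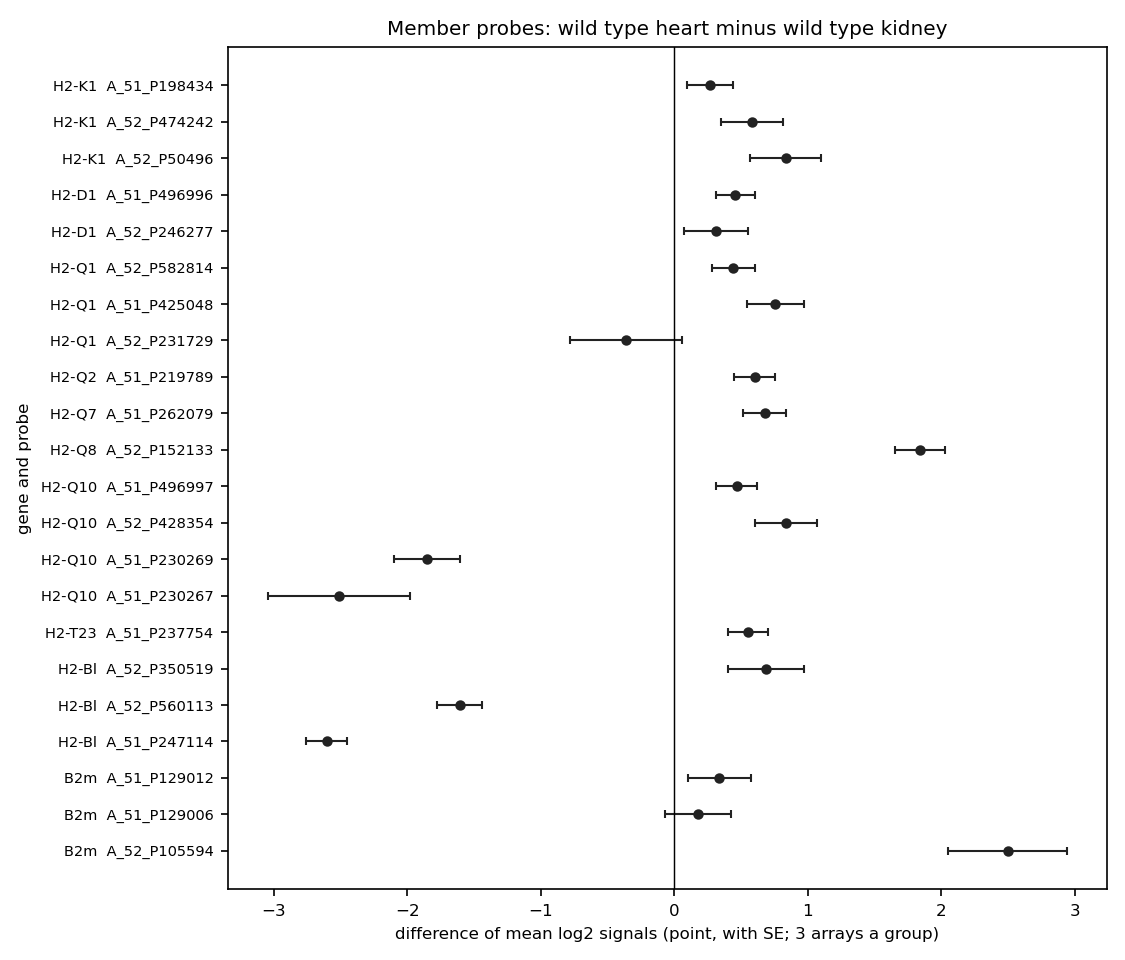
Difference of the mean log2 signals, wild type heart minus wild type kidney, of each member probe with its SE (3 arrays a group). The downstream probes of H2-Q10 and H2-Bl lie left of 0 and most of the rest to its right.

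The genes tested that make, load or switch on class I molecules were not called in either tissue. Of 28 such partner genes 26 were on the array and tested, and Nlrc5 was not among these 26. Limma called 0 of the 26 in heart, where 0.592% of all genes were called, and 0 in kidney, where 0.0544% were. At an unadjusted p under 0.05, 2 were higher and 0 lower in heart, beside 6.78% higher and 8.43% lower over all genes, and 0 were higher and 4 lower in kidney, beside 5.5% higher and 6.61% lower. The median difference was 0.14 in heart and -0.05 in kidney.

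The largest heart differences were those of Nfkb1, a subunit of NF-kB (0.99 ± 0.31, SE, adjusted p of 0.247 by limma), Psmb8, a subunit of the immunoproteasome (0.58 ± 0.22, 0.288), Nfyb, of the promoter factor NF-Y (0.45 ± 0.22, 0.343), and Tap1, of the peptide transporter (0.39 ± 0.16, 0.306). In kidney Psmb9, another immunoproteasome subunit, was at 0.79, 1.13 and 0.85 in knockouts, against 1.48, 1.89 and 1.60 in wild types (-0.73 ± 0.19, adjusted p of 0.205 by limma). Nfkb1 differed by -0.69 ± 0.27 there (0.346). Canx and Tapbp, both loading factors, had the largest kidney differences, -3.02 ± 1.75 and -1.27 ± 1.12 (0.511 and 0.655), and both turned on knockout kidney a. Canx was at -2.06 on knockout kidney a, 4.56 on b and 4.78 on c, against 5.45, 5.79 and 5.11 on wild type kidneys, while its other 2 probes differed by 0.08 and -0.17. Tapbp was at -0.33, 3.98 and 3.98 in knockout kidneys, against 3.71, 4.10 and 3.63 in wild types. Without knockout kidney a the Tapbp difference was 0.17. Nfkb1 stands on 3 probes, and the other 2 differed by 0.04 and -0.04 in heart.

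Of 32 other class I and class I-like genes 24 were on the array and 13 were tested in each tissue, and by the brightest probe of each gene limma called 0 in heart and 0 in kidney. At an unadjusted p under 0.05, 4 were higher and 1 lower in heart, and 3 were higher and 4 lower in kidney, beside the same shares over all genes as above. By any probe 1 gene was called in both tissues, chosen for naming after its values were seen: H2-T22, whose product is a ligand of gamma delta T cell receptors. Its probe A_52_P197826 was at 1.08, 1.85 and 0.97 in knockout hearts, against -1.40, -1.39 and -1.68 in wild type hearts (2.79 ± 0.26, SE, adjusted p of 0.0130 by limma). In kidney it was at 1.22, 1.03 and 0.98 in knockouts, against -0.88, -1.11 and -0.97 in wild types (2.06 ± 0.16, adjusted p of 0.0199 by limma). Over all probes limma called 0.47% in heart, 0.405% higher and 0.0649% lower, and 0.0969% in kidney, 0.0349% higher and 0.062% lower. The H2-T22 call was lost in heart without knockout heart a or wild type heart b or c, and in kidney without knockout kidney b or any 1 wild type kidney. The kidney call was also lost with the replicate block (adjusted p of 0.107), the slide as a block (0.0572), within the shared slide (0.0569) and with normexp (0.694). Under normexp limma called 0 of 25804 kidney probes. The brighter H2-T22 probe was wholly higher in knockouts as well, by 1.77 ± 0.43 in heart and 0.40 ± 0.15 in kidney, with adjusted p of 0.184 and 0.309 by limma.

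H2-T10, a close relative of H2-T22, was at 4.83, 5.90 and 4.26 in knockout hearts, against 3.18, 3.01 and 2.86 in wild type hearts (1.98 ± 0.40, SE, adjusted p of 0.129 by limma). Cd1d2, which belongs to the lipid-presenting CD1 molecules, was not well above background on any wild type heart and at least 4.58-fold higher in knockout hearts (adjusted p of 0.115 by limma). Cd1d1 differed by 1.18 ± 0.64 there (0.369). In kidney H2-T3, a TL antigen, was not well above background on any knockout array and at least 2.98-fold lower (adjusted p of 0.0769 by limma), but with normexp its difference was 0.51. H2-M3, which presents formylated bacterial peptides, differed by -1.12 ± 0.18 (0.0897), H2-T24, above background on 1 of 3 wild type kidneys, by 1.49 ± 0.37 (0.197) and Azgp1, a class I-like secreted protein, by 0.88 ± 0.21 (0.181). Cd1d2 in heart and H2-T3 and H2-T24 in kidney were tested only through the group where they were higher. Their p-values there, and any call of them under an alternative, follow in part from the filter. Without knockout heart c the heart count by the brightest probe was 5 (Cd1d2, H2-T10, H2-T22 and H2-T24 higher and Hfe lower).

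The gene patterns most like a member were sought over the 12 arrays after the mean of each tissue was subtracted, among 21650 probes of other genes, and are given as a description. All points share the 4 groups and their slides. Nearest to H2-D1 A_51_P496996 were Art4 (Pearson r of 0.967), Pcdh7 (0.960), BC023719 (0.958), Svep1 (0.956) and the targeted gene Slc29a1 (0.953). H2-Q8 came nearest to Agpat1 (0.973), Rab11b (0.966), Btbd9 (0.959), Apoa1 (0.958) and Zfp945 (0.944). Among the genes nearest B2m A_51_P129012 were Dynlt3 (0.955), Coa6 (0.940), Erap1 (0.930) and Nab1 (0.918), of which Erap1 trims the peptides that class I molecules hold. On chromosome 17 lay 4 of the 5 genes nearest H2-Q8, 2 of the 5 nearest H2-D1 and none of those named for B2m, where 4.50% of the candidate probes lie.

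Of the 22 probes 16, all of heavy chain genes, lie on chromosome 17, starting between 32074445 and 34358688 of build mm7, and the Slc29a1 probe starts at 43714823 of the same chromosome. The 3 H2-Bl probes are placed on Un_random and the 3 B2m probes on chromosome 2. The stretch between these members was looked at after its values were seen, so no test is given. Only the member probes were left out of its counts. Class I genes that are no members and lie there stay in them, so the counts are not free of the family. Of 158 other probes tested there in heart 62 did not overlap between genotypes (39.2%), against 22.4% on the other chromosomes, and limma called 10 (6.33%), against 0.387%. In kidney 71 of 156 did not overlap (45.5%), against 21.7% on the other chromosomes, and limma called 6 (3.85%), against 0.0490%. Of the 952 chromosome 17 probes outside the stretch from the first member to Slc29a1, 27.3% did not overlap in heart and 1.05% were called. In kidney 21.8% of 932 such probes did not overlap and 0.215% were called.

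The promoters of 4 genes are shown because H2-K1, H2-D1, H2-Q7 and H2-Q10 carry closely related stretches. Sequences are from RefSeq on GRCm38.p6, a C57BL/6J genome, and run toward the gene. Capitals mark GGGGATTCC, from the known NF-kB site of class I promoters, and CAGTTTC, a part of the interferon response element. These motifs do not overlap.
H2-K1, chr17:34000421-34000480, minus strand, 133 to 74 bases before the gene start: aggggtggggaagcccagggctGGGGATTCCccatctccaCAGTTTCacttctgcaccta
H2-D1, chr17:35262901-35262960, plus strand, 193 to 134 bases before: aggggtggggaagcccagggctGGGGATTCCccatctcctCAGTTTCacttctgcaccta
H2-Q7, chr17:35438999-35439058, plus strand, 156 to 97 bases before: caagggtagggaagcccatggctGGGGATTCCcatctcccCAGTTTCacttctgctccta
H2-Q10, chr17:35469891-35469950, plus strand, 198 to 139 bases before: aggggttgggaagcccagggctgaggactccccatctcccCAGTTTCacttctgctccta

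Of the 10 genes 7 had promoter entries, in 8 windows of 250 bases before to 50 after the gene start, searched on both strands. GGGGATTCC stood in those of H2-K1, H2-D1 and H2-Q7 and in 0.250% of all 32851 windows. CAGTTTC stood in those of H2-K1, H2-D1, H2-Q7, H2-Q10 and B2m and in 5.95% of all. The windows of H2-Q2 and H2-T23 held neither. CCAAT, the NF-Y motif, stood in those of H2-K1, H2-D1, H2-Q2, H2-Q7, H2-T23 and B2m and in 37.4% of all, and TGACGC in those of H2-K1 and H2-D1 and in 7.40% of all. A match is a description of letters, not of a site in use.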

How the data were processed

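Total RNA of each heart or kidney was hybridised to 1 array with Cy3, per the labels. The authors deposited 1 scanner file an array, with the intensity of each spot from Agilent Feature Extraction, version 9.5.3.1 per the file headers and 9.1 per the submitters' processing notes, after background subtraction and with surrogate values for dim spots. A further table, also deposited, gives log2 values scaled per array and centred per probe within each tissue. Each of its 12 columns follows the array of the same letter and tissue but of the other genotype (r of at least 0.9998), so it served only as an alternative. Log2 processed signals were shifted by the 75th percentile of each array, spots marked non-uniform or population outlier were dropped and spots of a probe averaged. A probe was tested if well above background on all 3 arrays of 1 or more groups, with limma 3.58.1 in R 4.3.3 per tissue and Benjamini-Hochberg adjustment over all probes (threshold 0.05). A list counts each gene by its probe of highest mean. For a group below background, a fold is at least the ratio to the lowest signal well above background per array. The script was tested on simulated data. Named were all member probes, every called gene of the 2 lists or otherwise the 4 largest differences, and the 5 most like genes of 3 members, 1 of which is not reported here. The members and lists were chosen with earlier results of these data known. Same-letter hearts deviated together (correlations of 0.365, 0.151 and 0.255). The main fits were still unpaired in both tissues, and the letter entered as a block only as an alternative. Nothing says which arrays come from separate litters, and p-values measure the spread between these samples. The number of arrays limits the precision. Alternatives changed the scaling, background correction, filter, values, pairing, slide and arrays used.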

Additional observations from a re-analysis of the deposited data

Results flagged for a closer look

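Nfkb1 and Psmb8 of the partner list, each by its probe of highest mean, lay wholly higher in knockout hearts and wholly lower in knockout kidneys. The Nfkb1 probes A_52_P569539 and A_52_P582969 overlapped in both tissues, with differences of 0.04 and -0.04 in heart and -0.42 and -0.80 in kidney. For Nfkb1 the heart effect minus the kidney effect was 1.68 ± 0.43 (SE, adjusted p of 0.134 by limma over 12 arrays), and for Psmb8 it was 0.97 ± 0.27 (adjusted p of 0.152), so the difference between tissues was not past the threshold for either. Over 24179 probes limma called 103 for this difference. The kidney difference of Nfkb1 turned to 0.44 with normexp background correction. No member probe lay wholly higher in one tissue and wholly lower in the other.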

How the results depend on the processing

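Of the 44 genotype differences of member probes, 33 kept their direction under all alternatives run, and 41 of 657 recomputed values moved by more than the spread between replicates. The rest were probes of H2-K1, H2-T23, B2m and H2-Q1 and the TL probe, in tissues where the genotypes overlapped, and the TL probe in kidney (0.39 with normexp). The count of member probes wholly lower in knockout hearts was 3 with quantile scaling in place of 6, and that of probes wholly higher was 11 with only the arrays without Xist signal in place of 7, where knockout heart c is the only knockout and separation comes more easily. Leaving out 1 array at a time gave 7 to 9 and 6 to 8 in heart and 6 and 12 to 13 in kidney. The count of members called between wild type tissues was 8 to 14 when 1 array was left out, in place of 15. For the other class I genes the heart count was 0 to 5 when 1 array was left out and 1 by any probe. The kidney count was 1 with median scaling, 1 with quantile scaling (H2-T3 in both, tested only through the wild type kidneys) and 1 by any probe. The partner count was 0 under every alternative in both tissues. The H2-T22 probe A_52_P197826 lost its kidney call with normexp, no filter, the replicate block, the slide as a block and within the shared slide, and when knockout kidney b or any wild type kidney was left out, and its heart call without knockout heart a or wild type heart b or c. Values turned sign for Tapbp in kidney (0.17 without knockout kidney a and with only the arrays without Xist signal, 0.076 with the slide as a block and within the slide shared by both genotypes, an alternative chosen after seeing the data, and -1.99 without knockout kidney c), for Nfkb1 and H2-T3 in kidney with normexp (0.44 and 0.51) and for H2-Q1 A_52_P231729 between tissues without wild type heart c (0.16, against -0.64 without wild type heart a); the cause was not tested. With median scaling the median of all heart probes was -0.24 in place of -0.08. Normexp moved the median of all kidney probes to 0.23 from -0.03, and limma called 0 of 25804 probes there. The Slc29a1 kidney call was thus lost with normexp too. In kidney same-letter arrays correlated at 0.146, 0.0177 and -0.182, and the replicate block gave 0 partner genes and 0 other class I genes called; the Slc29a1 kidney call was lost under it (adjusted p of 0.0979). In heart the block gave 0 and 0, kept the H2-T22 call (0.0314), and the tissue count under it was 12. The deposited table, centred within each tissue, and the slide as a block could not be run between tissues, since no slide holds both wild type tissues.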
